A study of Mus musculus with 6 samples.

Results

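The genes described here encode 10 transcription factors that mark hepatic stellate cells or other cells of mesenchymal origin: Tcf21, Hand2, Twist1 and Twist2, Snai2, Lhx2, Gata4, Gata5 and Gata6, and Wt1. They were taken by gene symbol, and all 10 were found, each on 1 probe, among the 16446 different gene symbols and 23473 probes of the array. Gene expression was measured on 6 single-colour arrays of hepatic stellate cells, liver pericytes that store vitamin A and turn into collagen-producing myofibroblasts after injury. All mice had liver cirrhosis caused by the hepatotoxin carbon tetrachloride (CCl4). In 3 samples the mice were wild type and in 3 they lacked Sept4 (SEPT4-KO), the gene of a septin, which binds GTP and assembles into filaments, and both genotypes carried the same injury. Uninjured mice were not analysed here, so nothing below describes the response to injury itself. The sources used here do not give the knockout allele, the strain, the age or how the cells were purified. They also do not say whether the 3 samples of a genotype came from separate mice, and the spread behind each p-value may thus be technical.

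Stellate cells descend from the mesoderm of the septum transversum and from the mesothelium that covers the embryonic liver, and several of these factors act in that lineage. Tcf21, Hand2, Twist1 and Twist2 are basic helix-loop-helix proteins, which bind E-box sequences as dimers with the broadly expressed E proteins and are held back by Id proteins, which dimerise without binding DNA. Lhx2 is a LIM homeodomain factor whose loss in mice leads to activated stellate cells and a fibrotic liver. Gata4, Gata5 and Gata6 are zinc finger proteins that recognise GATA sequences together with cofactors of the FOG family. Snai2 (Slug) is a zinc finger repressor of epithelial genes that works alongside Twist proteins in the transition from epithelium to mesenchyme, and Wt1 marks the mesothelium and its descendants.

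Across all probes, 42.7% passed an adjusted p of 0.05 in limma, 26.7% as higher and 16.0% as lower in the knockout. The median difference of all probes, knockout minus wild type, was 0.12 on the log2 scale. After a second quantile normalisation that median was 0.02 and after cyclic loess, a smoothing of each pair of arrays against signal, it was 0.01, and the share of calls that were higher moved from 62.6% to 52.5% and 51.5%. Small rises are therefore given below beside the values under these scalings. Sept4 itself was not analysed here because no probe carries its name, so the deleted gene gives no check of the labels. Of 13 stellate cell markers 12 were measured, none at the lowest value of an array, although Gfap was dim with means of 1.75 in wild-type and 2.21 in knockout samples. Markers of other liver cells were measured too and are given after the factors.

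Of the 10 factors, 6 were higher in the knockout and passed, none was lower and passed, and 4 did not pass. At an unadjusted p under 0.05 in the same limma fit, 8 were higher and 0 lower, against 31.2% and 19.3% of all probes. The 6 that rose were Tcf21, Hand2, Twist1, Twist2, Lhx2 and Gata4, while Snai2, Gata6, Gata5 and Wt1 did not pass. For 8 of the 10 every knockout array lay above every wild-type array, which was so for 34.5% of all probes, and for none of the 10 did every knockout array lie below, against 21.7%. The median difference of the 10 was 0.38, against 0.12 for all probes. Brighter probes passed more often: 7 of the 10 had a mean above 5.02, the median of every array, and 5 of these 7 rose, against 42.3% of all probes above that median. None of the 7 fell, against 22.0%. Of the 3 dimmer genes only Gata4 passed, where 21.2% of probes at or below the median passed in either direction. The genes were chosen with earlier results of these data known, so the counts describe them and are not a test of the group. In bulk RNA, fewer cells of a type and less RNA per cell cannot be told apart.

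**Figure D1:**
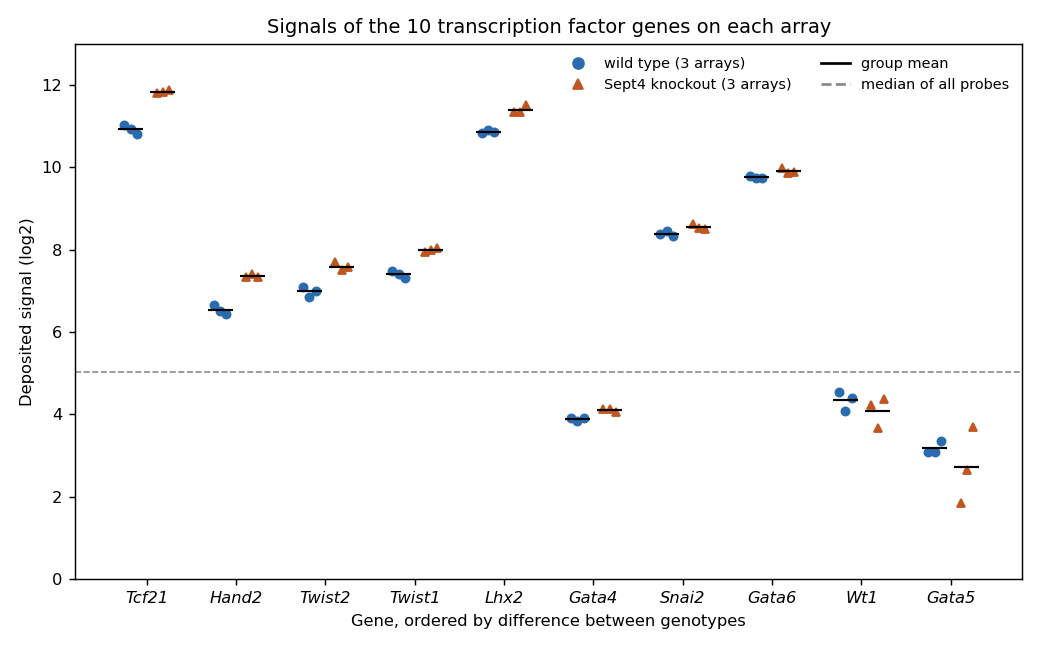
Deposited log2 signal of each of the 10 genes on the 3 wild-type arrays (circles) and the 3 Sept4 knockout arrays (triangles), with group means as bars and the median of all probes as a dashed line. Tcf21 and Hand2 show the widest gaps between the genotypes, and the knockout points of Gata5 spread from 1.83 to 3.69.

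Tcf21, a factor of visceral mesenchyme that is high in quiescent stellate cells, had the largest rise among the 10. Its signal was 11.02, 10.94 and 10.80 on the wild-type arrays and 11.82, 11.83 and 11.87 on the knockout arrays. The gap between the highest wild-type and the lowest knockout value was 0.79, larger than the range within either genotype. The means were 10.92 ± 0.11 and 11.84 ± 0.03 (SD, n = 3), a 1.89-fold rise. On the log2 scale this was 0.92 ± 0.07 (SE), with a 95% interval of 0.73 to 1.10, and limma gave an adjusted p of 0.000856. After quantile normalisation it was 0.73, and after cyclic loess 0.71. Among the 671 probes whose mean signal lay within 0.5 of that of Tcf21, 3.43% had a larger rise.

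Hand2, which the stellate cell lineage shares with heart and neural crest derivatives, rose nearly as much. It read 6.64, 6.52 and 6.43 on the wild-type arrays and 7.34, 7.40 and 7.34 on the knockout arrays, with no overlap. The rise was 1.78-fold, a log2 difference of 0.83 ± 0.07 (SE) with a 95% interval of 0.65 to 1.01 and an adjusted p of 0.00104 in limma. Under quantile normalisation and cyclic loess the difference was 0.76 each time. Of 1971 probes of like signal, 4.21% had a larger rise. The values of Tcf21 and Hand2 moved in parallel over the arrays, and the ratio of one to the other differed between the genotypes by only 0.08 on the log2 scale, with p = 0.1 in an exact two-sided permutation test, the smallest that 3 arrays against 3 can give. That small difference turned to -0.0241 after quantile normalisation and to -0.0511 after cyclic loess, so the order of the pair is not settled.

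Twist1 and Twist2, a pair of closely related factors of mesodermal and dermal mesenchyme, rose by like amounts. Twist1 read 7.49, 7.41 and 7.31 in wild-type and 7.95, 7.99 and 8.03 in knockout samples. Twist2 read 7.092, 6.861 and 7.004 in wild-type and 7.689, 7.505 and 7.575 in knockout samples. The groups did not overlap for either gene. The rise was 1.501-fold for Twist1, a log2 difference of 0.59 ± 0.06 (SE), and limma's adjusted p was 0.00198. For Twist2 it was 1.520-fold, a difference of 0.60 ± 0.09 (SE) with an adjusted p of 0.0044. The interval of Twist1 was 0.42 to 0.75 and that of Twist2 0.38 to 0.83, so each contained the difference of the other. The log2 ratio of Twist1 to Twist2 within an array was 0.42 ± 0.12 in wild-type and 0.40 ± 0.12 (SD, n = 3) in knockout samples, which overlapped, with p = 0.9 in an exact two-sided permutation test. At like signal, 13.4% of 1878 probes had a larger rise than Twist1 and 11.8% of 1940 a larger rise than Twist2.

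The sequences upstream of these 4 genes are shown because they rose together and their products bind E-boxes themselves. Of the 10 genes, 6 were matched to the RefSeq promoter table on build GRCm38.p6. They gave 7 entries in all because Lhx2 has a pair of starts. Gata4, Gata6, Snai2 and Wt1 were not matched. The search left out a single chromosome, so an entry of an unmatched gene that lies there would have been missed. The 250 bases before the start are given 5′ to 3′ on the gene's strand, with capitals for the E-box CANNTG and for AGATAA, a common form of the GATA site, on either strand. The windows are chr10:22820144-22820393 on the minus strand for Tcf21, chr8:57320733-57320982 on the plus strand for Hand2, chr12:33957421-33957670 on the plus strand for Twist1 and chr1:91801211-91801460 on the plus strand for Twist2.
Tcf21: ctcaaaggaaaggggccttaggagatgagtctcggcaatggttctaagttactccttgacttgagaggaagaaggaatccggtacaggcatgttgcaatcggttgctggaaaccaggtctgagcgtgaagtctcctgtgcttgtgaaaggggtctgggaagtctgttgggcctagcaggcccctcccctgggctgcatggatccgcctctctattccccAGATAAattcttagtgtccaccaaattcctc
Hand2: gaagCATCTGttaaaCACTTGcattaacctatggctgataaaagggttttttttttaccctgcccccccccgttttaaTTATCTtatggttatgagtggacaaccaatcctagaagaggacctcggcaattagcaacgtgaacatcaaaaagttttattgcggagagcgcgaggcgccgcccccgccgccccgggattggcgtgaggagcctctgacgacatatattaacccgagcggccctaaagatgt
Twist1: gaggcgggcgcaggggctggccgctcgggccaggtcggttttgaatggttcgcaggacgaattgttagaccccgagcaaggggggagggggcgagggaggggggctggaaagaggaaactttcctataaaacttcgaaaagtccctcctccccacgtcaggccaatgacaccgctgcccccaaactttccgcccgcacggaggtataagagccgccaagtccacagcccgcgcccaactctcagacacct
Twist2: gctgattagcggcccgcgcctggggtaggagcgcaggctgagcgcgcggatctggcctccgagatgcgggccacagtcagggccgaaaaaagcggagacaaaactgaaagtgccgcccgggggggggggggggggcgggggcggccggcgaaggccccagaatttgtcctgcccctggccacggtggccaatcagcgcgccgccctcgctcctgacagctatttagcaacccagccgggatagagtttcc

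Hand2 was the only one of these 4 with an E-box in the window, and it had 2, CATCTG from base 246 and CACTTG from base 235 before the start. At least 1 E-box was found in 66.2% of all 32851 windows. AGATAA was found in 9.99% of all windows and in those of Tcf21, from base 31 before the start, and Hand2, from base 172 on the other strand, as TTATCT. In Hand2 that match shares 3 bases with TAATTA, a core recognised by LIM homeodomain factors, which 4.84% of all windows held. Neither window of Lhx2 held any of these motifs, and that of Gata5 held 1 E-box, CACGTG. The form of the E-box that Snai proteins prefer, CACCTG, was in none of the 7 windows, against 17.2% of all. The upstream base composition also differed, with 52.4% G and C for Tcf21 and 49.2% for Hand2 against 62.4% for Twist1 and 68.8% for Twist2.

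Snai2 stayed close to its wild-type signal. It read 8.39, 8.44 and 8.34 on the wild-type arrays and 8.62, 8.53 and 8.49 on the knockout arrays. The groups did not overlap, but the gap between them was 0.05, smaller than the range within either. The difference of 0.16 ± 0.06 (SE) on the log2 scale did not pass, at an adjusted p of 0.0893 in limma. It was 0.06 after quantile normalisation and 0.03 after cyclic loess, and 47.2% of 1703 probes of like signal had a larger rise. The 95% interval reached 0.31, which lies below the whole interval of Twist1. The log2 ratio of Twist1 to Snai2, both factors of epithelial to mesenchymal transition, was -0.99 ± 0.08 in wild-type and -0.56 ± 0.10 (SD, n = 3) in knockout samples. The genotypes did not overlap in this ratio, and the difference was 0.43. This pair was chosen after the values were seen. The exact two-sided permutation p was again 0.1, and 0.2 after adjustment over the 4 pairs of genes compared. This ratio differed by 0.43 after quantile normalisation and by 0.45 after cyclic loess.

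Lhx2, the factor whose loss activates stellate cells in mice, was higher in the knockout. It read 10.84, 10.91 and 10.85 on the wild-type arrays and 11.35, 11.36 and 11.51 on the knockout arrays, and the genotypes were 0.44 apart at their nearest. The rise was 1.45-fold, a log2 difference of 0.54 ± 0.06 (SE) with a 95% interval of 0.38 to 0.70 and an adjusted p of 0.00236 in limma. It passed under both other scalings at 0.36 after quantile normalisation and 0.34 after cyclic loess. Probes as bright as this often rose, and 18.5% of 752 probes of like signal rose by more, their median difference being 0.21. The interval of Lhx2 lay below that of Tcf21, whereas it overlapped those of Hand2, Twist1 and Twist2.

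Of the GATA factors only Gata4 passed, and the intervals of all 3 overlapped. Gata4, which is expressed in stellate and sinusoidal endothelial cells and whose loss leads to liver fibrosis in mice, read 3.92, 3.83 and 3.91 on the wild-type arrays and 4.13, 4.13 and 4.06 on the knockout arrays. The groups were 0.14 apart, and the rise was 1.17-fold, a log2 difference of 0.22 ± 0.05 (SE), and limma's adjusted p was 0.0228. The difference held its size after quantile normalisation, at 0.26, and after cyclic loess, at 0.24. The call ended without wild-type array 2, at an adjusted p of 0.0779, without wild-type array 3, at 0.0514, without knockout array 1, at 0.0667, without knockout array 2, at 0.0785, and with a variance prior that follows the signal, at 0.407. Gata4 was dim. Of 2634 probes of like signal, 33.6% had a larger rise and 14.6% passed as higher.

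Gata6, a factor of mesoderm and endoderm found in stellate cells, was bright and stayed close to its wild-type signal. It read 9.78, 9.75 and 9.74 on the wild-type arrays and 9.99, 9.86 and 9.90 on the knockout arrays, which did not overlap. The difference of 0.15 ± 0.05 (SE) on the log2 scale did not pass in limma, at an adjusted p of 0.0711. At like signal the median of 1255 probes was 0.20, so 54.2% of them had a larger rise. After quantile normalisation the difference was -0.00042 and after cyclic loess -0.00698. The ratio of Gata4 to Gata6 within an array overlapped between the genotypes as deposited, with a difference of 0.07 and p = 0.3 in an exact two-sided permutation test, and the difference was 0.26 after quantile normalisation.

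Gata5, a factor of heart and gut endoderm, was the most variable of the 10. It read 3.08, 3.08 and 3.34 on the wild-type arrays and 1.83, 2.65 and 3.69 on the knockout arrays, so the knockout arrays lay on both sides of the wild type. The range was 0.26 in wild-type and 1.85 in knockout samples. The log2 difference was -0.45 with a 95% interval of -1.68 to 0.78 and an adjusted p of 0.502 in limma. Without knockout array 1 the difference was -0.0021, and without knockout array 3 it was -0.93 with an adjusted p of 0.0664. No change was detectable at this spread.

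Wt1, the mesothelial factor, also did not pass. It read 4.537, 4.077 and 4.402 on the wild-type arrays and 4.223, 3.661 and 4.380 on the knockout arrays, which overlapped. The log2 difference was -0.25 with a 95% interval of -0.84 to 0.34 and an adjusted p of 0.434 in limma. Mesothelial markers were dim too, with a median signal of 3.12 over 10 measured genes. Of these, 3 fell and 1 rose, where 16.0% of all probes fell and 26.7% rose, and 2 were at the lowest value on at least 1 array. The summed linear signal of the 10 was 207 to 214 in wild-type and 177 to 199 in knockout samples, and without Slpi, the brightest, 85.0 to 92.6 and 89.7 to 98.5. The part of these markers in the value of Wt1 was not tested.

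**Figure D2:**
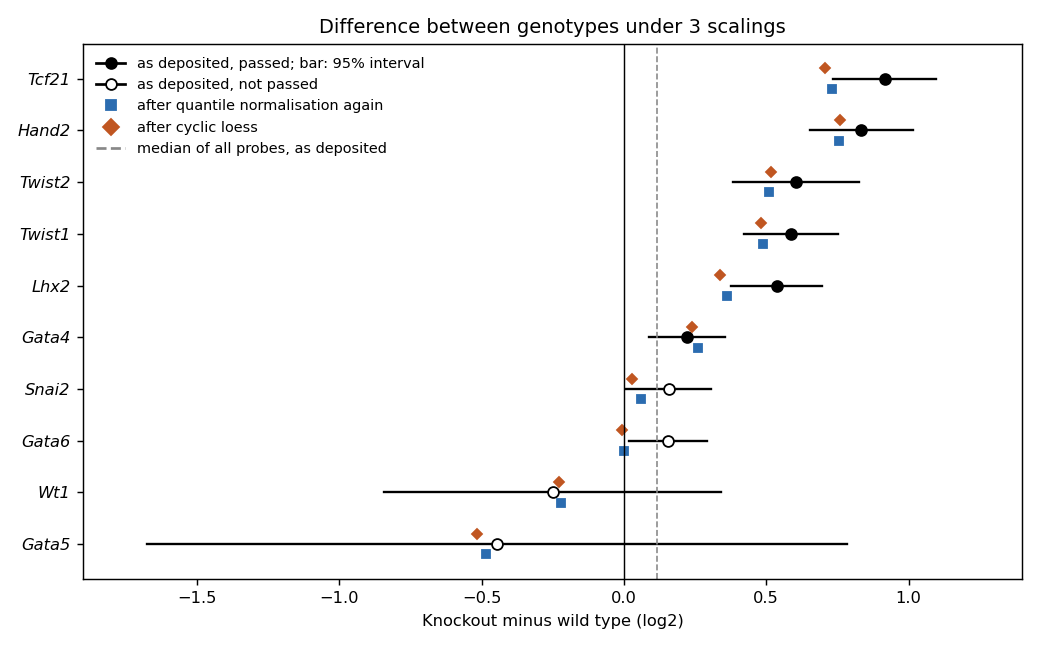
Difference between knockout and wild type for each gene on the log2 scale, as deposited with its 95% interval (circles, filled where the adjusted p was under 0.05), after a second quantile normalisation (squares) and after cyclic loess (diamonds). The 5 largest rises, from 0.54 to 0.92 as deposited, stay above 0 under each scaling, whereas Gata6 falls to 0 and Snai2 close to it.

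Ranked by difference, the order was Tcf21, Hand2, Twist2, Twist1, Lhx2, Gata4, Snai2, Gata6, Wt1 and Gata5. The intervals of neighbours in this order overlapped except those of Lhx2 and Gata4, of 0.38 to 0.70 and 0.09 to 0.36. Among genes further apart, the intervals of Tcf21 and Lhx2 did not overlap. Read against the median of all probes, the rises of Tcf21 and Hand2 were 0.80 and 0.72, those of Twist2, Twist1 and Lhx2 were 0.49, 0.47 and 0.42, and that of Gata4 was 0.11. Snai2 and Gata6 were each 0.04 above that median. In the plot of all probes by signal, brighter probes as a whole sat above 0, so the reading differs at like signal. The median of probes of like signal was 0.20 for Gata6, above its own difference of 0.15. For Gata4 that median was -0.03.

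**Figure D3:**
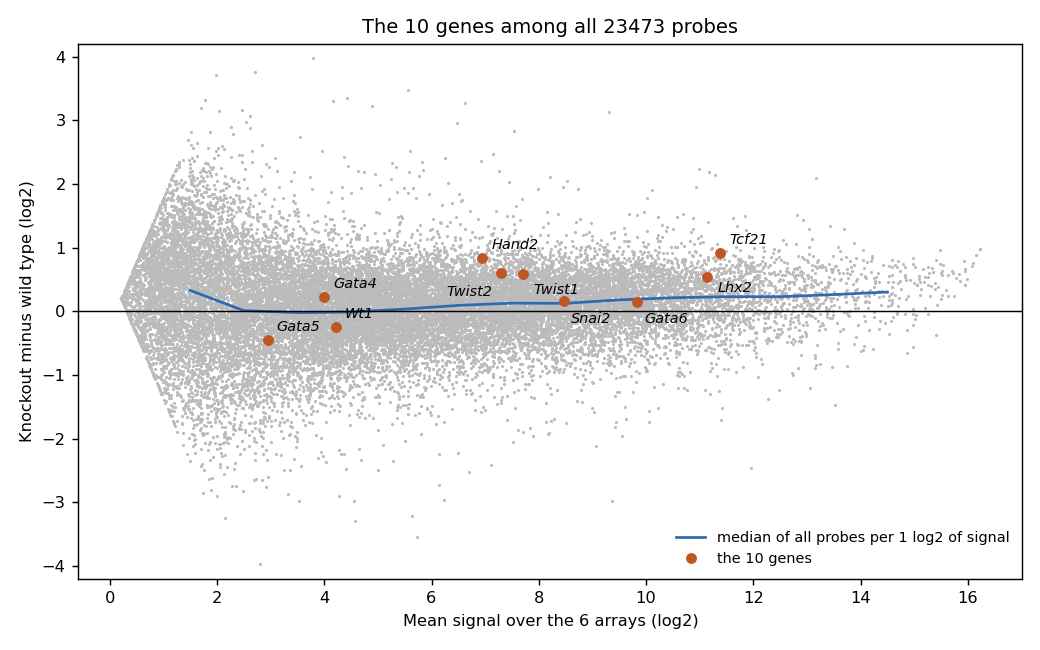
Difference between knockout and wild type (log2) against mean signal over the 6 arrays (log2) for all 23473 probes (grey), with the 10 genes in colour and the median of all probes per 1 log2 of signal as a line. Tcf21, Hand2, Twist1, Twist2 and Lhx2 lie above the line, while Snai2 and Gata6 lie on or near it.

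For each factor that passed, the probes nearest in pattern were those with the smallest root mean square distance over the 6 arrays, after each probe was centred on its own mean, among 16630 other probes with a symbol. Nearest to Tcf21 were Sumo2, Col16a1 and Usp15, at distances of 0.023, 0.028 and 0.029 on the log2 scale. Plekha6, Pqbp1 and Nmi lay nearest to Hand2, at 0.015, 0.023 and 0.026. Tcf21 and Hand2 lay 0.053 apart, nearer than any other pair among the 6 that rose. Twist1 was nearest to Anp32b, Rragc and C1galt1c1, at 0.010, 0.014 and 0.015, and Twist2 to Lmo6, Pik3ap1 and the clone D830014E11Rik, at 0.036, 0.038 and 0.042. The nearest to Lhx2 were Dhrs7, Atg10 and Trim27, at 0.013, 0.023 and 0.023, and to Gata4 Lcp1, Atp6v0b and Pld2, at 0.012, 0.014 and 0.017. This measure counts the size of the difference between the genotypes together with the spread within them.

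Of 16 measured relatives of the 10 factors from the same protein families, 3 rose and 1 fell, and their median difference was -0.08. Their median signal was 3.93, and 21.2% of all probes at or below the array median passed, so 4 of 16 was near the background. Msc (musculin), a basic helix-loop-helix repressor close to Tcf21, rose from 6.48 ± 0.11 to 7.26 ± 0.08 (SD, n = 3), or 1.71-fold, with an adjusted p of 0.00163 in limma. Gata2, a factor of blood and endothelial cells, fell by 0.46 on the log2 scale. Lhx6, a LIM homeodomain factor, differed by 0.29, a call lost under quantile normalisation, at an adjusted p of 0.0944, and under cyclic loess, at 0.0777, and without any single array, at 0.0520 to 0.0952. Scrt1, a neural relative of the Snai genes, sat at the floor of each of the 3 wild-type arrays, so its level there is only a bound and no fold is given. The listed means differed by 1.52 (log2), a value that became 0.67 once the 10th percentile was added to each linear signal.

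Of 19 measured partners and inhibitors of these factors, 8 rose and 2 fell, with a median difference of 0.14. The 10 of 19 passing compares with 42.7% of all probes. Their median signal was 8.15, and among all probes above the array median 42.3% rose and 22.0% fell. The share that rose was thus near the background. The rises depended on scaling: 6 were called after quantile normalisation and 5 after cyclic loess, with 2 lower each time. Id3, an inhibitor of basic helix-loop-helix proteins, rose from 10.89 ± 0.07 to 12.37 ± 0.06 (SD, n = 3), or 2.77-fold. Ldb1, which bridges LIM homeodomain proteins such as Lhx2 into complexes, rose by 0.73, and Lmo4, a LIM-only protein that binds Ldb1, by 0.79. The dim LIM-only gene Lmo3 differed by 1.56, with an adjusted p of 0.0435 as deposited and 0.0522 after cyclic loess, and its call ended without wild-type array 1 (0.0828) and without knockout array 1 (0.118), 2 (0.0958) or 3 (0.0903). The 2 that fell were the GATA cofactors of the FOG family, Zfpm1 and Zfpm2, named here after their values were seen. Zfpm2 had means of 9.92 ± 0.05 in wild-type and 9.22 ± 0.07 (SD, n = 3) in knockout samples and fell by 0.70 on the log2 scale, with an adjusted p of 0.00104 in limma. Zfpm1 also fell by 0.70.

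**Figure D4:**
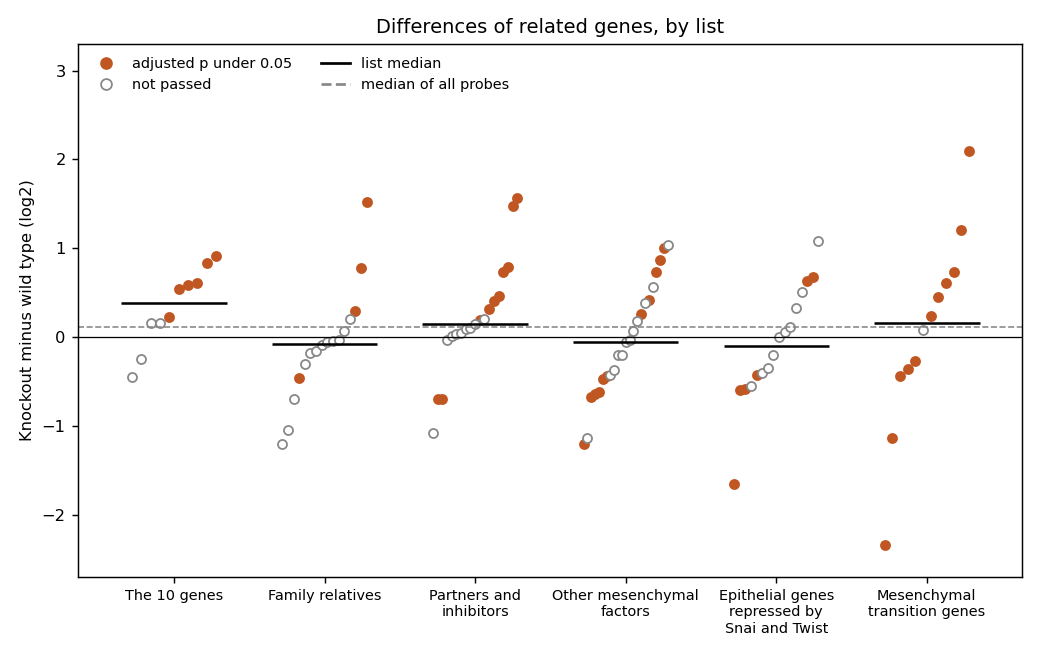
Difference between knockout and wild type (log2) for the 10 genes and for the members of 5 lists of related genes, filled where the adjusted p was under 0.05, with list medians as bars and the median of all probes as a dashed line. The 10 genes have a median of 0.38, and the 5 lists have medians from -0.10 to 0.16 with members on both sides of 0.

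Other transcription factors of mesenchymal cells moved both ways, 5 of 23 up and 6 down, with a median of -0.06, and after cyclic loess 4 were up and 9 down. Nr2f2 (COUP-TFII), a nuclear receptor of mesenchyme and veins, rose 2.004-fold, Mef2d, a MADS-box factor of muscle, by 0.87 and the somite factor Meox1 by 0.73 on the log2 scale. Osr1, a zinc finger factor of intermediate and lateral mesoderm, fell from 5.56 ± 0.05 to 4.36 ± 0.05 (SD, n = 3), or 2.30-fold. Among all 23473 probes 26.7% were higher and 16.0% lower, so the list stood near the background in its rises, at 5 of 23.

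Epithelial genes that Snai and Twist proteins are known to repress were mostly dim. Of 16 measured, 2 rose and 4 fell, with a median of -0.10, against 26.7% higher and 16.0% lower among all probes. The median signal of the 16 was 3.50, and 21.2% of all probes at or below the array median passed in either direction. E-cadherin (Cdh1), the classical target of Snai and Twist proteins, differed by 0.63 ± 0.13 (SE) from a dim wild-type signal of 3.58. That call was lost without wild-type array 2, at an adjusted p of 0.0554 in limma. P-cadherin (Cdh3) rose by 0.67. Rbm35b, an epithelial splicing factor now named Esrp2, fell 3.16-fold and the tight junction gene Cldn4 by 0.60 on the log2 scale. Of 12 mesenchymal genes of the same transition, 6 rose and 5 fell, and without knockout array 2 only 3 fell. Among all probes above the array median, 42.3% rose and 22.0% fell. Their median was 0.16 in the deposited values, -0.08 under quantile normalisation and -0.11 under cyclic loess. Col3a1, a fibrillar collagen chain, rose 4.26-fold and the gelatinase Mmp2 by 1.21, whereas the mesenchymal cadherin Cdh11 fell by 2.34 and S100a4, a calcium-binding protein of fibroblasts, by 1.14.

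Markers of stellate cells mostly rose and those of myofibroblasts mostly fell. Of all probes, 26.7% rose and 16.0% fell. Both lists were brighter than most probes, with median signals of 6.75 and 10.76. Among all probes above the array median 42.3% rose and 22.0% fell. Of 12 stellate cell markers 8 rose and 1 fell, with a median difference of 0.77, and their summed linear signal was 4585 to 4812 in wild-type and 8169 to 8269 in knockout samples. Of 9 myofibroblast genes 2 rose and 7 fell, with a median of -0.98. The 2 that rose were the collagen genes Col3a1, by 2.09, and Col1a1, by 0.45 on the log2 scale. The sums of the 9 were 59575 to 66346 and 53022 to 54456 and rested on Acta2. Without it they were 23968 to 25365 and 26686 to 27535. Endothelial markers, in cells that also express Gata4, had 3 of 11 higher and 2 lower, and sums of 504 to 536 and 627 to 646. Portal fibroblast markers had 2 of 11 higher and 2 lower, with sums of 554 to 580 and 453 to 475. Hepatocyte markers had 4 of 10 higher and 1 lower, with sums of 2376 to 2456 and 2811 to 2910.

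Macrophage markers had 2 of 11 higher and 4 lower, with a median of -0.05. The complement genes C1qa, C1qb and C1qc fell by 0.98, 0.63 and 1.32 and the macrophage receptor gene Emr1 by 1.27 on the log2 scale, whereas the scavenger receptor family gene Cd5l rose by 0.49 and the lectin gene Clec4f by 0.52. The macrophage sums were 5246 to 5502 and 5642 to 5901, and without Cd5l, the brightest, 3216 to 3414 and 2854 to 2929. Of 6 bile duct markers 1 rose and 1 fell, with a median of 0.29. Their sums of 1154 to 1260 and 610 to 624 rested on Spp1 (osteopontin), which fell by 1.26, and without it they were 96.5 to 115 and 145 to 159. Of 7 genes of heart muscle, where Hand2 and the GATA factors also act, only Tnnt2 passed, as lower. With it the sums were 324 to 356 and 194 to 198, and without it 72.9 to 76.6 and 69.7 to 71.0. The part of these shifts in the values of the 10 factors was not tested.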

How the data were processed

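The values are normalised log2 signals of 6 single-colour Cy5 arrays, 3 per genotype, deposited by the authors as 1 table. Per the labels, total RNA was extracted with phenol and chloroform and the values were quantile normalised. The log base was taken from their range, and the sources used here give no background correction, scanner software or build. Between 940 and 1255 probes per array were tied at its lowest value. The number of arrays limits the precision. The labelling text names a microRNA kit and tumour samples, so the design was taken from the genotype and cell type labels.

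Probes were named from the platform annotation, which gave 16631 probes 1 symbol, 6842 none and 0 several. All 23473 probes were fitted as deposited in limma 3.58.1 (lmFit, eBayes; R 4.3.3). Tests were two-sided, and p-values were adjusted by Benjamini-Hochberg over the whole array, with 0.05 as the threshold. A single value was tested by exact permutation over the arrays, and within-array ratios of 4 pairs of genes were adjusted over those pairs. The fit was also run on simulated arrays with known changes in 200 probes. That is far fewer than the 10025 that passed here, so these runs do not give its error rate on these data.

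The 10 genes, the lists of related genes and the markers were chosen with earlier results of these data known. All probes of the 10 genes are given. From each list of related genes the text names up to 4 members that passed, by size of difference, with Zfpm1 and Zfpm2 added after their values were seen. The markers named were also chosen after their values were seen. A gene's brightest probe gave its value in lists, and older symbols were matched through the RefSeq gene table. The nearest probes in pattern were 3 per gene that passed. The 4 pairs were chosen after the values were seen. The alternatives were quantile normalisation, median centring, cyclic loess, leaving out the dimmest 25% of probes or those at an array's lowest value, an offset added to the linear signal at its 10th percentile, a robust prior that follows the signal, weights per array, a replicate block, an ordinary test per probe and leaving out each array. Motifs were searched in the 250 bases before each start with Python 3.11.15, and figures were drawn with matplotlib 3.10.9.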

Additional observations from a re-analysis of the deposited data

How the results depend on the processing

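The rises of Tcf21, Hand2, Lhx2, Twist1 and Twist2 kept their direction and passed under all 16 alternatives, with differences of 0.71 to 0.97, 0.76 to 0.89, 0.34 to 0.56, 0.48 to 0.63 and 0.51 to 0.66. Gata4 differed by 0.19 to 0.26 and lost its call under 6. Its difference of 0.22 had an adjusted p of 0.407 with the trended and robust prior and of 0.0887 with the replicate number as a block, and without single arrays the difference ran from 0.19 to 0.25. Gata6 turned to -0.00042 after quantile normalisation and to -0.00698 after cyclic loess, while its difference of 0.15 passed without the dimmest 25% of probes (adjusted p 0.0397), with the trended and robust prior (0.00311) and in the ordinary test (0.0446). Snai2, at 0.16, passed with the trended and robust prior at an adjusted p of 0.00668. Gata5 and Wt1 passed under none of the alternatives. The ratio of Tcf21 to Hand2 turned from 0.08 to -0.0241 after quantile normalisation and to -0.0511 after cyclic loess. The cause was not tested. Leaving out an array gave 5 or 6 of the 10 as higher and none as lower, and 7954 to 9082 calls over all probes against 10025.

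The sources used here do not say whether the replicate numbers of the titles pair the samples. Over all probes the deviations of same-numbered arrays from their group means correlated at 0.0077, -0.0013 and -0.0020. Arrays of different numbers were not compared, so these values cannot exclude a pairing. With the number as a block 7724 probes passed, 5 of the 10 genes among them as higher. Of the other results, on lists, their genes and the pairs, 521 values under the alternatives were classed as the same, 8 as moved, 18 as weaker and 2 as reversed. For a gene, the same meant that its direction and call were kept. For a list count or a ratio of a pair it meant only a small change. The ratio of Twist1 to Twist2 was so classed although it turned from -0.0185 to 0.0469 without wild-type array 2. It also turned to 0.0497 without knockout array 1. Signal over background is not given in the files, and Gata4, Gata5 and Wt1 lay below the median of their arrays.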
